A study of Mus musculus with 12 samples.

Results

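The expression of 10 genes of acute-phase proteins, Saa1, Saa2, Saa3, Orm1, Orm2, Lcn2, Lrg1, Hp, C3 and Cp, was described in AT2 cells, the alveolar epithelial cells that secrete surfactant. The 10 genes were given by name and matched by symbol to a table of 21878 genes, and all 10 were among the 10675 genes tested. Saa3 and Orm1 were chosen by their high FPKM values in AT2-BLM against AT2-PBS, so those values are a description, and the secreted liver proteins Mup3 and Apoa1 were read beside them as checks for liver RNA. RNA was sequenced from 4 groups of 3 samples of C57BL/6 mice. AT2-PBS and AT2-BLM came from Atg5 f/f mice, labelled wild type, that received PBS or bleomycin (BLM, an antitumour drug used to injure the lung) at 2 U/kg into the trachea. Atg5-/- AT2-PBS and Atg5-/- AT2-BLM came from Nkx2.1Cre;Atg5 f/f mice given the same treatments (PBS or BLM). In these mice Cre under the Nkx2.1 promoter removes Atg5, a gene required for autophagy, throughout the lung epithelium and not in AT2 cells alone. All 4 groups therefore carried the floxed Atg5 allele. The mice were males of 8 to 12 weeks according to the methods, and cells were taken on day 14 in each group for which a day is given, which leaves out Atg5-/- AT2-PBS. AT2 cells were sorted as CD31-, CD34-, CD45-, CD24-, Sca-1- and EpCAM+.

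Acute-phase proteins are plasma proteins whose amounts change within hours to days of tissue injury or infection. The liver makes most of them, driven by interleukin 6 through STAT3 and by interleukin 1 and tumour necrosis factor through NF-kB and C/EBP factors. Several are also made by epithelial cells at the body surface, the lung included. Serum amyloid A proteins (Saa1, Saa2, Saa3) are small apolipoproteins that attract leukocytes. Saa1 and Saa2 are the circulating liver forms, while Saa3 is made mainly outside the liver. Orosomucoids (Orm1, Orm2) are glycoproteins that bind drugs and lipids and dampen immune responses. Lipocalin 2 (Lcn2) withholds iron from bacteria by binding their siderophores, haptoglobin (Hp) binds free haemoglobin, and ceruloplasmin (Cp) is a copper-carrying ferroxidase. Lrg1 is a leucine-rich glycoprotein that modifies TGF-beta signalling in vessels. C3 is the central component of complement.

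In mm9 (NCBIM37) the serum amyloid A genes lie close together on chromosome 7, with Saa3 from 53967368 to 53971046, Saa1 from 53995871 to 53998350 and Saa2 from 54007203 to 54009684. The orosomucoid genes lie together on chromosome 4, with Orm1 from 63005594 to 63009197 and Orm2 from 63023483 to 63026912. The other 5 members are scattered. Lcn2 lies on chromosome 2 from 32240153 to 32243317, Cp on chromosome 3 from 19857054 to 19909145 and Hp on chromosome 8 from 112099030 to 112103072. Lrg1, from 56259103 to 56261369, and C3, from 57343397 to 57367559, are both on chromosome 17. The longest coding transcripts of Saa1 and Saa2 are 92.7% identical and those of Orm1 and Orm2 91% identical, whereas Saa3 shares 62.4% with Saa1. Reads could therefore have been divided wrongly within these pairs, and the split of signal between Saa1 and Saa2 and between Orm1 and Orm2 is uncertain.

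The stretch of 250 bases before the transcription start is shown for 5 members, because Saa3 was most like Orm2 and Lcn2 in its expression over the samples, while Saa1 and Saa2 were most like each other. Sequences are those of RefSeq on GRCm38.p6, which had entries for 8 of the 10 genes and not for Orm1 and Hp. Capitals mark matches to a C/EBP-type motif, TTNNGNAA, on either strand.
Saa3: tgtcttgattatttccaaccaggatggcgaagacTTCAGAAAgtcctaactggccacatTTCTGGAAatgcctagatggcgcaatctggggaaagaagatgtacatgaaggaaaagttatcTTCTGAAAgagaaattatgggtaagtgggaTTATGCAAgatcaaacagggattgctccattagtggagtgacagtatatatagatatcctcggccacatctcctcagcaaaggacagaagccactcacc
Orm2: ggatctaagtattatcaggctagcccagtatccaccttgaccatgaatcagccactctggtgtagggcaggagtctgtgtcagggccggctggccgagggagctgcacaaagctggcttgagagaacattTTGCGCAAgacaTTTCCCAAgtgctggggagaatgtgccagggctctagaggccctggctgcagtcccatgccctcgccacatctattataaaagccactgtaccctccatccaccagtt
Lcn2: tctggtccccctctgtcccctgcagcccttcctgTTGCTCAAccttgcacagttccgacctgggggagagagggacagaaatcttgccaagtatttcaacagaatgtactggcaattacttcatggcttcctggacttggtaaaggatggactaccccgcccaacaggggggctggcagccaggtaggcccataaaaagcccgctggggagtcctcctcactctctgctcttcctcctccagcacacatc
Saa1: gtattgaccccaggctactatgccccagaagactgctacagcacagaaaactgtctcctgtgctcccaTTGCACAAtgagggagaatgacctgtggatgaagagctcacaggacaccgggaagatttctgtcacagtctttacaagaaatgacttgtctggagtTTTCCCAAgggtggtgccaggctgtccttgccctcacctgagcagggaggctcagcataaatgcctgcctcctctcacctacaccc
Saa2: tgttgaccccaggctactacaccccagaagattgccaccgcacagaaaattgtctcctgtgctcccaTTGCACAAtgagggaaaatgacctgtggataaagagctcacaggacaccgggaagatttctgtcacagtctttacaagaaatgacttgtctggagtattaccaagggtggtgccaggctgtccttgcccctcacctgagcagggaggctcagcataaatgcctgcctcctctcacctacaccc
These stretches lie at chr7:46715677-46715926 for Saa3 (minus strand), chr4:63362199-63362448 for Orm2 (plus strand), chr2:32387740-32387989 for Lcn2 (minus strand), chr7:46742981-46743230 for Saa1 (minus strand) and chr7:46751583-46751832 for Saa2 (plus strand). The C/EBP-type motif was found in 7 of the 8 members with a sequence (Saa1, Saa2, Saa3, Orm2, Lcn2, C3 and Cp), against 36.8% of 32851 mouse promoter stretches of the same length. Saa3 held 4 matches, Orm2 and Saa1 held 2 each, and Lcn2 and Saa2 held 1 each. An NF-kB-type motif was found in Lrg1 alone, against 4.65% of all stretches. A STAT3-type motif, TTCNNNGAA, was found in 0 of the 8, against 7.02% of all stretches. Both strands were searched, no match of one of these motifs overlapped a match of another in the members, and a match says only that the letters are present. The Saa1 and Saa2 stretches are 94.8% identical, and the second C/EBP-type match of Saa1, 86 to 79 bases before the start, is absent from Saa2.

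Expression was deposited as FPKM, in which fragments are divided by transcript length and by sequencing depth, so levels can be compared between genes. Absolute depth is unknown, and steps in the low values put relative depth between 1 and 1.155. In bulk RNA, fewer cells of a type and less RNA per cell cannot be told apart. AT2 markers were strongly expressed, with Sftpa1 between 4967 and 13567 FPKM, but Sftpc was listed at 0 in 11 samples and at 112570 FPKM in AT2-BLM replicate 2, so a listed 0 need not mean that a transcript was absent. Atg5 was between 6.01 and 12.5 FPKM in the Atg5 f/f samples and between 6.72 and 10.1 FPKM in the Atg5-/- samples, and the genotype is used as labelled. Eif2s3y, a Y-linked gene, was under 1 FPKM in 7 samples (AT2-PBS replicate 1, AT2-BLM replicates 1 and 2, all of Atg5-/- AT2-PBS and Atg5-/- AT2-BLM replicate 1) and between 8.25 and 13.1 FPKM in the other 5, although the methods name males. Ins1, an insulin gene, stood at 665 FPKM in AT2-PBS replicate 1 and at 673 and 678 FPKM in Atg5-/- AT2-PBS replicates 1 and 2, and at 0.521 FPKM or less in the other 9 samples.

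RNA of other cell types differed between the groups. The 22 liver markers summed to 620.3 FPKM in AT2-PBS replicate 1, to 8.39 and 3.95 FPKM in the other two, and to between 310 and 911 FPKM in AT2-BLM. In Atg5-/- AT2-PBS they reached 2253 to 3924 FPKM, above every other sample, and in Atg5-/- AT2-BLM 208 to 1392 FPKM. Mup3 was at 65.3, 1.05 and 0 FPKM in AT2-PBS, 125, 53.1 and 30.5 in AT2-BLM, 286, 522 and 404 in Atg5-/- AT2-PBS and 19.0, 151 and 48.4 in Atg5-/- AT2-BLM. Macrophage markers (10 genes) summed to 768 to 1153 FPKM in Atg5-/- AT2-PBS and to at most 185 FPKM in any other group. Neutrophil markers (10 genes) summed to 521 to 1695 FPKM there, against 39.6 to 520.9 FPKM in Atg5-/- AT2-BLM, 115 to 157 in AT2-BLM and 14.4 to 112 in AT2-PBS. Airway secretory markers (7 genes) and fibroblast markers (8 genes) were also highest there, at 25534 to 85440 and 95.6 to 105 FPKM. Endothelial markers stayed at or below 31.9 FPKM. Ly6a, which encodes the sorted-out Sca-1, was at 7.36 to 16.8 FPKM in AT2-PBS, at 325 to 777 in AT2-BLM, at 368 to 754 in Atg5-/- AT2-PBS and at 63.1 to 984 in Atg5-/- AT2-BLM.

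**Figure D1:**
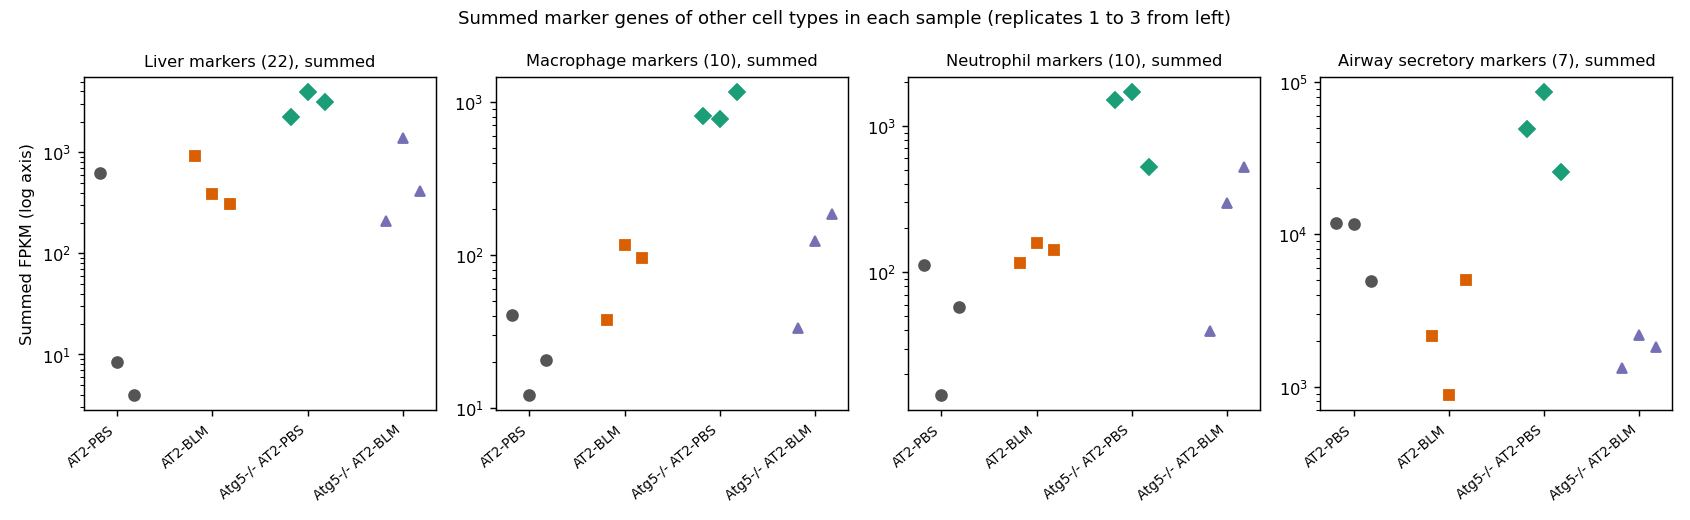
Summed FPKM (log axis) of marker genes of liver, macrophages, neutrophils and airway secretory cells in each of the 12 samples, by group, with replicates 1 to 3 from left to right. The 3 Atg5-/- AT2-PBS samples hold the highest liver sums (2253 to 3924 FPKM), macrophage sums and airway secretory sums, and AT2-PBS replicates 2 and 3 hold the lowest liver sums (8.39 and 3.95 FPKM).

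Among the serum amyloid A genes, Saa3 was almost silent in AT2-PBS (0.204, 0.791 and 0 FPKM, in the order of the replicates, as throughout). The AT2-BLM samples held 136, 154 and 22.8 FPKM. In Atg5-/- AT2-PBS it was at 18.7, 16.4 and 13.98 FPKM, already above every AT2-PBS sample. In Atg5-/- AT2-BLM it spread from 11.1 FPKM in replicate 1 to 86.0 in replicate 2 and 38.8 in replicate 3. The Atg5-/- groups thus overlapped, while AT2-BLM lay apart from AT2-PBS, and AT2-BLM replicate 3 was well below the other two replicates. The order of the levels was AT2-BLM, Atg5-/- AT2-BLM, Atg5-/- AT2-PBS and AT2-PBS, and only the last step was free of overlap between neighbours.

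Saa1 and Saa2 took another course. The AT2-PBS samples held 9.68, 0.244 and 0 FPKM of Saa1 and the AT2-BLM samples 24.7, 14.1 and 14.8. Saa1 had its highest group mean in Atg5-/- AT2-PBS, at 48.5, 68.5 and 102 FPKM, and spread widely in Atg5-/- AT2-BLM, at 3.61, 62.8 and 12.6 FPKM. Saa2 ran in parallel, at 6.87, 0.162 and 0 FPKM in AT2-PBS, 18.2, 7.75 and 13.05 in AT2-BLM, 44.7, 50.1 and 98.1 in Atg5-/- AT2-PBS and 3.09, 50.4 and 12.1 in Atg5-/- AT2-BLM. The ratio of Saa1 to Saa2 lay between 1.04 and 1.82 in the 10 samples with Apoa1 of at least 1 FPKM, so both genes rose and fell together. Their sample order was close to that of the liver markers, including the single high AT2-PBS sample, replicate 1, and the single high Atg5-/- AT2-BLM sample, replicate 2. The related Saa4 stayed low, at 5.52 FPKM or less.

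For Orm1 the AT2-PBS samples read 14.04, 0.6002 and 0.0861 FPKM and the AT2-BLM samples 116, 128 and 115, where the samples lay close together. Atg5-/- AT2-PBS samples held 52.5, 93.3 and 102 FPKM. Atg5-/- AT2-BLM samples held 10.6, 109 and 76.9 FPKM, with replicate 1 again the low one. Orm2 was listed at 0 in all AT2-PBS samples and read 9.70, 13.7 and 2.57 FPKM with BLM. Levels of 3.16, 1.96 and 3.07 FPKM were found in Atg5-/- AT2-PBS and of 0.875, 7.02 and 10.9 FPKM in Atg5-/- AT2-BLM. Orm1 exceeded Orm2 by 7.09 to 47.5 times in the 9 samples in which Orm2 was above 0, so the relation of the pair was not constant. Orm3 was at 0.212 FPKM or less in every sample.

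Of the proteins that bind iron, haem or copper, Lcn2 was strongly expressed without injury, at 493, 396 and 367 FPKM in AT2-PBS, including the replicates in which liver markers were near 0. With BLM it reached 5781, 6849 and 2224 FPKM, where it ranked 10 of all genes by mean level, against rank 117 in AT2-PBS. The Atg5-/- AT2-PBS samples held 1448, 1037 and 801 FPKM and the Atg5-/- AT2-BLM samples 1787, 4427 and 4326. Both BLM groups therefore lay wholly above their PBS group. Hp was high everywhere and moved little. It was at 919, 841 and 999.9 FPKM in AT2-PBS, at 1203, 1065 and 439.6 in AT2-BLM, at 1234, 1493 and 1323 in Atg5-/- AT2-PBS and at 1124, 1499 and 1427 in Atg5-/- AT2-BLM, and its rank by mean level lay between 23 and 44. Cp was the lowest of the 3, with 1.09, 0.607 and 0.139 FPKM in AT2-PBS, 3.20, 2.30 and 1.51 in AT2-BLM, 3.72, 5.72 and 4.61 in Atg5-/- AT2-PBS and 0.906, 1.85 and 1.51 in Atg5-/- AT2-BLM.

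Lrg1 was abundant without injury, at 988, 460.2 and 481 FPKM in Atg5 f/f mice and 1123, 938 and 581 FPKM in Atg5-/- mice. With BLM the Atg5 f/f samples held 2370.4, 2642 and 1773 FPKM and the Atg5-/- samples 2630.2, 3019 and 3547. The 6 BLM samples were all above the 6 PBS samples. C3 moved within a narrow band, at 32.9, 30.8 and 19.4 FPKM in AT2-PBS, 49.9, 60.0 and 29.6 in AT2-BLM, 49.8, 41.3 and 38.1 in Atg5-/- AT2-PBS and 44.8, 43.7 and 41.6 in Atg5-/- AT2-BLM. Its ranges in AT2-BLM and AT2-PBS overlapped through AT2-BLM replicate 3.

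**Figure D2:**
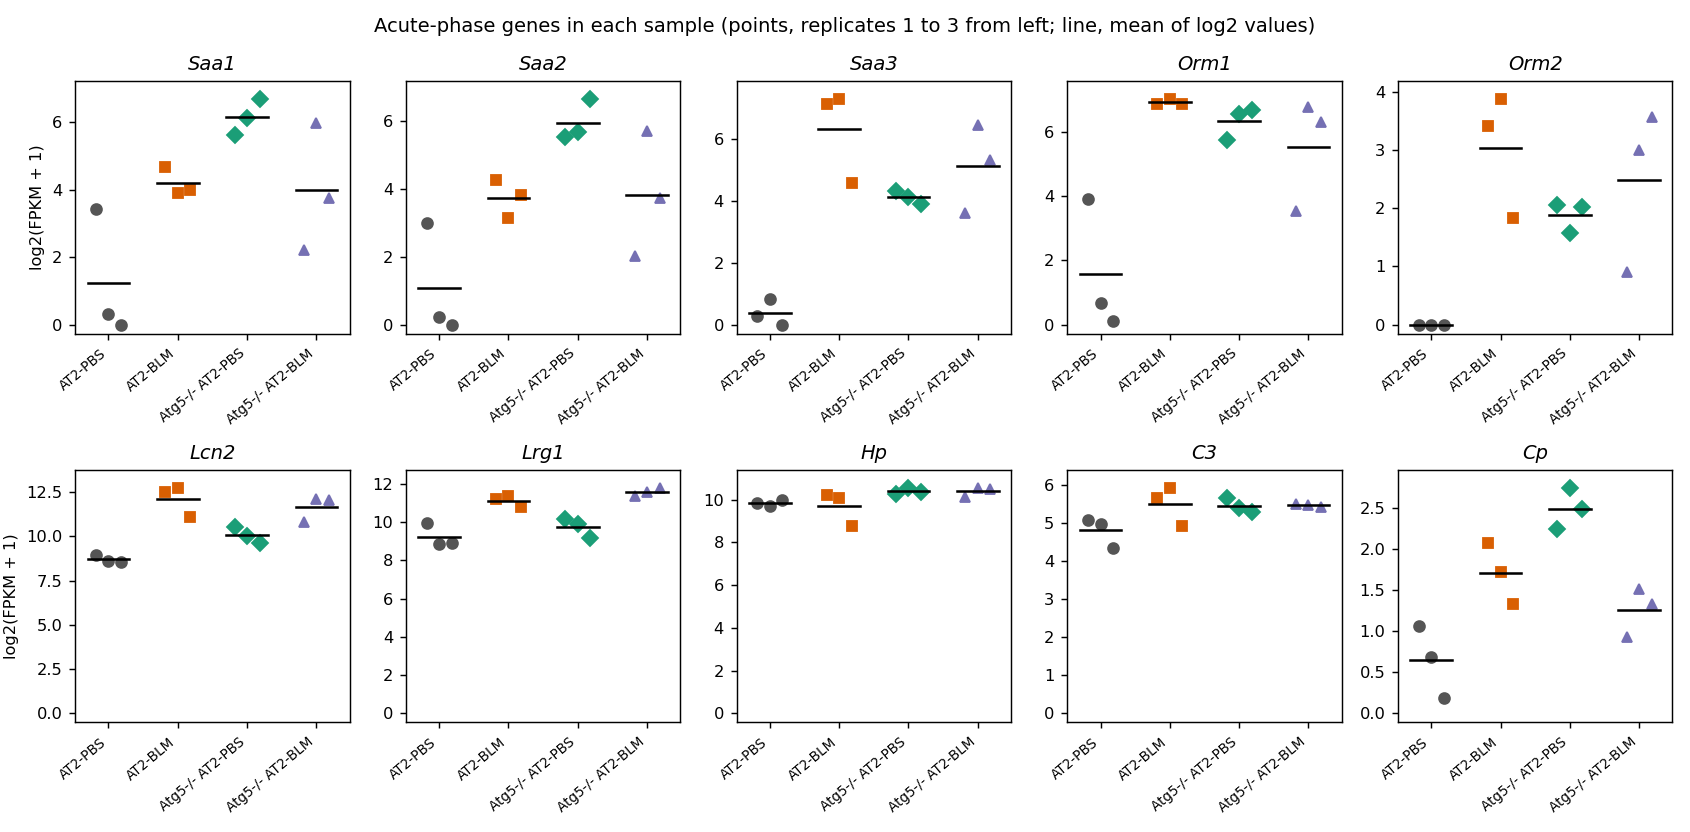
Level of each of the 10 acute-phase genes as log2(FPKM + 1) in each sample (points) and the mean of these log2 values (line) for the PBS and BLM groups of Atg5 f/f and Atg5-/- mice. Lrg1 is higher in all 6 BLM samples than in all 6 PBS samples, Saa1 and Saa2 have their highest group mean in Atg5-/- AT2-PBS, where Atg5-/- AT2-BLM replicate 2 overlaps them, and Hp stays between 439.6 and 1499 FPKM throughout.

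A single limma fit of the 12 samples on log2(FPKM + 1) gave the changes, which were called where the fold change was at least 1.4 with an unadjusted p under 0.05, the criterion of the study. Adjusted p-values are Benjamini-Hochberg values over all genes tested. Adding 1 to FPKM makes fold changes of weakly expressed genes too small. The labels do not say that samples of a group came from separate animals, and p-values measure the spread between samples only. With 3 samples against 3, the smallest two-sided p of an exact permutation test is 0.1, so none is given.

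The effect of BLM in mice without epithelial Atg5 was compared between Atg5-/- AT2-BLM and Atg5-/- AT2-PBS. Lrg1 and Lcn2 rose, Cp, Saa1 and Saa2 fell, and the other 5 genes were not called. In all, 5 of 10 genes were called, against 18.4% of all genes. The 2 that rose compare with 7.66% of all genes called higher and the 3 that fell with 10.7% called lower. Of the 3, Saa1 and Saa2 have transcripts 92.7% identical and are not separate counts. Summed as 1 feature, they changed by -2.22 and were not called. The median log2 change of the 10 genes was 0.0052, beside 0.0633 for all genes tested. Lrg1 rose by 1.84 on the log2 scale (standard error 0.32, adjusted p = 0.0038 from limma), and Lcn2 by 1.61 (standard error 0.44, adjusted p = 0.0396 from limma), a call that was lost with scaling to Cdh1, the gene of E-cadherin (1.15). Cp fell by 1.24 (standard error 0.27, adjusted p = 0.0136 from limma). For these 3 genes, which made up 3 of 10 against 8.67% of all genes past the adjusted threshold, the ranges of the groups were apart. Ranges lay apart upwards for 2 of 10 genes against 13.1% of all genes and downwards for 1 of 10 against 11.8%.

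Saa1 (log2 change -2.16, standard error 0.93, adjusted p = 0.196 from limma) and Saa2 (-2.13, standard error 0.88, adjusted p = 0.176 from limma) met the criterion of the study and not the adjusted threshold. Their group ranges overlapped through Atg5-/- AT2-BLM replicate 2. Both calls were lost without Atg5-/- AT2-PBS replicate 3 (-1.88 and -1.79) and without Atg5-/- AT2-BLM replicate 1 (-1.27 and -1.24) or replicate 3 (-2.05 and -2.08), and that of Saa1 also without Atg5-/- AT2-PBS replicate 2 (-2.17). In the same comparison 18 of the 22 liver markers were called lower, with a median log2 change of -2.38. So were all 10 macrophage markers (median -2.02), 7 of 8 neutrophil, 6 of 6 fibroblast and 6 of 6 airway secretory markers tested. The liver covariate was the mean log2(FPKM + 1) of the liver markers other than Fga, Fgb and Fgg. With it Saa1 changed by 0.19 and Saa2 by -0.0096, neither called, while Lrg1, Lcn2 and Cp stayed called. Over all genes, the number called went from 1962 to 1522. The covariate does not separate liver RNA from RNA of the other cell types that fell in the same comparison. It was at 5.70 to 6.56 in Atg5-/- AT2-PBS and at 2.76 to 5.07 in Atg5-/- AT2-BLM, without overlap. The lost and kept calls therefore say little about the origin of the RNA.

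Saa3 changed by 1.01 (standard error 0.72, adjusted p = 0.476 from limma), Orm2 by 0.61 (standard error 0.61, adjusted p = 0.642) and Orm1 by -0.79 (standard error 0.92, adjusted p = 0.699), and none of these was called. With the liver covariate Orm1 changed by 1.41, in the other direction, and was called. All 3 depended on Atg5-/- AT2-BLM replicate 1, the only sample of its group with Eif2s3y under 1 FPKM and the one with the lowest liver, macrophage and neutrophil sums. Without it Saa3 changed by 1.77 and Orm2 by 1.404, both called, and Orm1 by 0.20. Hp (log2 change -0.0069, standard error 0.31) and C3 (0.017, standard error 0.25) were not called (adjusted p = 0.994 and 0.982 from limma). Among samples with Eif2s3y under 1 FPKM, the single Atg5-/- AT2-BLM sample against the 3 Atg5-/- AT2-PBS samples was at 2630.2 against 581 to 1123 FPKM for Lrg1, 1787 against 801 to 1448 FPKM for Lcn2 and 0.906 against 3.72 to 5.72 FPKM for Cp. For Saa3 the same samples read 11.1 against 13.98 to 18.7 FPKM. Atg5-/- AT2-PBS held no sample with Eif2s3y of at least 1 FPKM, so no comparison within the other set was possible.

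In mice with intact Atg5, AT2-BLM against AT2-PBS, the levels are a description, since this contrast was used in choosing Saa3 and Orm1. On the log2 scale Saa3 differed by 5.95 (standard error 0.72) and Orm1 by 5.34 (standard error 0.92). Lcn2 differed by 3.42 (standard error 0.44), Saa1 by 2.95 (standard error 0.93), Saa2 by 2.67 (standard error 0.88), Lrg1 by 1.89 (standard error 0.32), Cp by 1.06 (standard error 0.27), C3 by 0.70 (standard error 0.25) and Hp by -0.15 (standard error 0.31). Orm2 was above its listed 0 in every AT2-BLM sample, and no fold change is given. The criterion of the study was met, upwards, by 9 of 10 genes, all but Hp, and by 7 of the 8 other than Saa3 and Orm1, where it was met by 20.6% of all genes (28.4% in either direction, 7.77% downwards). Ranges lay apart upwards for 6 of these 8, all but Hp and C3, against 28.9% of all genes. Nothing is read from these counts, since the contrast was used in choosing genes. The median log2 difference was 2.81 for the 10 genes and 2.28 for the 8, beside 0.17 for all genes. Quantile normalization moved the latter to -0.015, and 1235 genes were then called higher and 1398 lower, against 2202 and 829 without it, while no member changed direction. In the same comparison 17 of the 22 liver markers were called higher, with a median of 2.34. Of the 6 airway secretory markers tested, 4 were called lower, with a median of -1.63. With the liver covariate Saa1 differed by 0.76, Saa2 by 0.69, Orm1 by 3.29, Cp by 0.58 and Saa3 by 5.30. Without AT2-BLM replicate 3 the difference of Hp was 0.30. The single AT2-PBS sample with Eif2s3y under 1 FPKM, replicate 1, was below AT2-BLM replicates 1 and 2, the samples of that set, for each of the 10 genes.

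Side by side, the change with BLM was 1.89 for Lrg1 in Atg5 f/f mice and 1.84 in Atg5-/- mice, and 3.42 and 1.61 for Lcn2. It was 5.95 and 1.01 for Saa3 and 5.34 and -0.79 for Orm1. For Saa1, Saa2 and Cp the sign differed, with 2.95 and -2.16, 2.67 and -2.13, and 1.06 and -1.24. The difference itself was tested with the interaction term for the 8 genes other than Saa3 and Orm1. It was called, downwards, for 5 of 8, against 15.2% of all genes. The 5 include Orm2, whose transcript is 91% identical to that of Orm1, so its values may not be free of the choice of Orm1. Cp (-2.30, standard error 0.38, adjusted p = 0.0043 from limma), Saa1 (-5.11, standard error 1.31, adjusted p = 0.0347) and Saa2 (-4.80, standard error 1.24, adjusted p = 0.0349) passed the adjusted threshold, 3 of 8 against 7.11% of all genes lower. Saa1 and Saa2, with transcripts 92.7% identical, are not separate counts, so the share of members is too high. Lcn2 (-1.81, standard error 0.62, adjusted p = 0.106 from limma) and Orm2 (adjusted p = 0.119 from limma) met the criterion of the study alone. Lrg1 (-0.047, standard error 0.45, adjusted p = 0.968 from limma), Hp (0.14, standard error 0.44, adjusted p = 0.892) and C3 (-0.69, standard error 0.35, adjusted p = 0.306) were not called. C3 was called without AT2-PBS replicate 1 (-0.82) or AT2-BLM replicate 3 (-0.97). With the liver covariate Cp alone was called, and genes called lower over all genes fell from 1620 to 755. That covariate was higher in every Atg5-/- AT2-PBS sample than in any other sample, so these calls say little about the origin of the RNA. The term takes in the difference between the PBS groups, and it shares its Atg5 f/f samples with the contrast used in choosing Saa3 and Orm1.

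**Figure D3:**
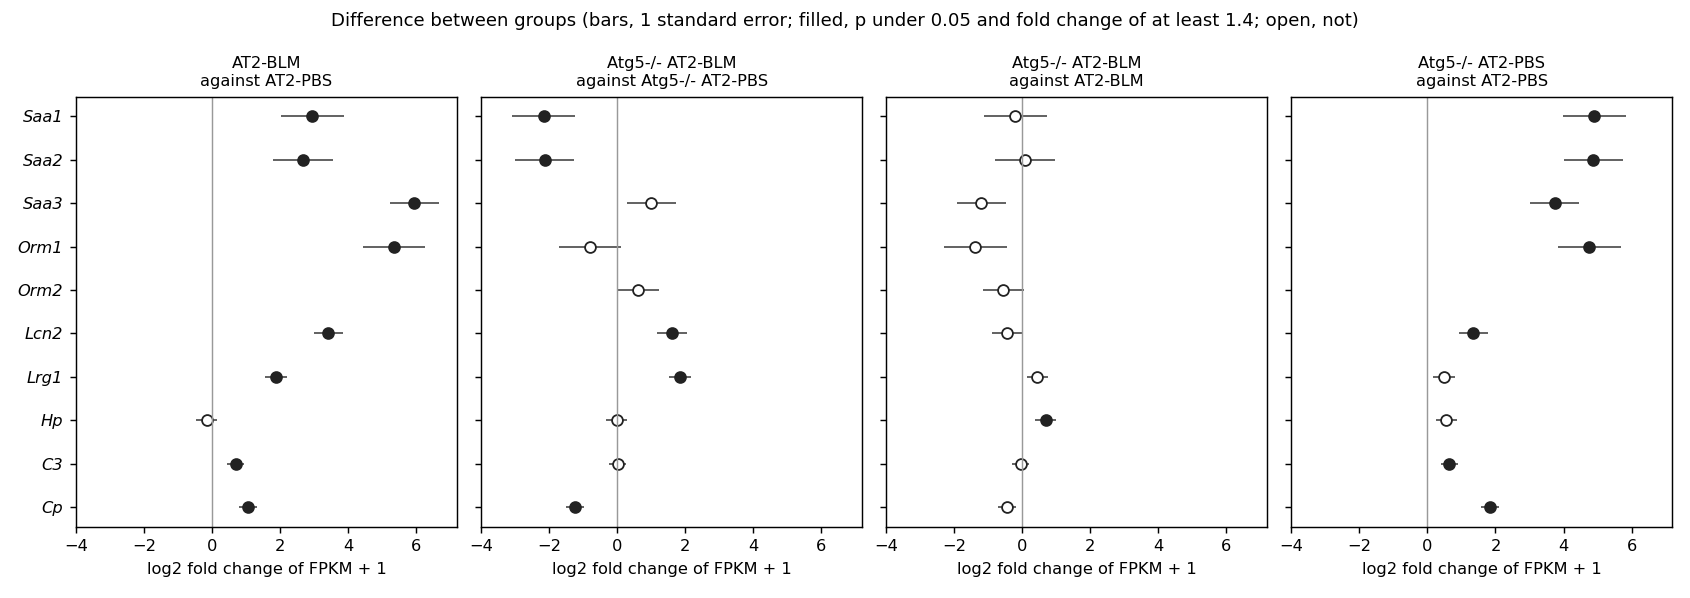
Log2 fold change of FPKM + 1 between groups for each acute-phase gene, with 1 standard error from limma, in 4 comparisons that share groups. Filled points are called changes, those of AT2-BLM against AT2-PBS and of Saa3 and Orm1 against Atg5 f/f groups are a description, and Orm2 is not drawn against AT2-PBS, where it was listed at 0. Lrg1 changes by 1.89 and 1.84 with BLM in the 2 genotypes, while Saa1, Saa2 and Cp are higher with BLM in Atg5 f/f mice and lower in Atg5-/- mice.

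Without injury, Atg5-/- AT2-PBS was compared with AT2-PBS. Of the 8 genes other than Saa3 and Orm1, 6 were called higher, against 14.1% of all genes, and their median log2 difference was 1.60, beside 0.019 for all genes. Saa1 (4.90, standard error 0.93, adjusted p = 0.0034 from limma), Saa2 (4.88, standard error 0.88, adjusted p = 0.0024) and Cp (1.85, standard error 0.27, adjusted p = 0.00058) passed the adjusted threshold, 3 of 8 against 9.92% of all genes higher. Here too Saa1 and Saa2 are near identical and not separate counts. Lcn2 (1.35, standard error 0.44, adjusted p = 0.0727 from limma), C3 (0.65, standard error 0.25, adjusted p = 0.14) and Orm2 (listed at 0 in AT2-PBS, adjusted p = 0.0744) met the criterion of the study alone. Orm2, with a transcript 91% identical to that of Orm1, may not be free of the choice of Orm1. C3 was no longer called without AT2-PBS replicate 3 (0.42) or replicate 1 of Atg5-/- AT2-PBS (0.54), under quantile normalization (0.53) or with a covariate for Y-linked genes (0.38). Hp (0.55, standard error 0.31, adjusted p = 0.333 from limma) and Lrg1 (0.49, standard error 0.32, adjusted p = 0.41) were not called, although Lrg1 was called when AT2-PBS replicate 1 (0.85) or replicate 3 of Atg5-/- AT2-PBS (0.77) was left out, and Hp with scaling to Cdh1 (0.95) or in a fit of the compared groups alone (0.55). Saa3 differed by 3.74 and Orm1 by 4.76, as a description. Ranges lay apart upwards for 7 of the 8 genes, all but Lrg1, against 18.1% of all genes.

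All 22 liver markers were called higher in the same comparison, with a median of 4.72, as were all 10 macrophage markers (median 2.99) and all 8 neutrophil markers tested (median 2.83). With the liver covariate the number of called genes fell from 6 to 1, Cp, and Saa1 changed by 0.30, Saa2 by 0.72 and Lcn2 by 0.46. Over all genes, those called higher fell from 1507 to 706 with it. The covariate was at 5.70 to 6.56 in Atg5-/- AT2-PBS and at 4.06, 0.390 and 0.162 in AT2-PBS. It thus nearly followed the groups, and the lost calls say little about the origin of the RNA. Among samples with Eif2s3y under 1 FPKM, AT2-PBS replicate 1 stood at 9.68 FPKM for Saa1, 0.204 for Saa3, 1.09 for Cp and 493 for Lcn2, below all 3 Atg5-/- AT2-PBS samples, and at 988 for Lrg1, within their range. The islet genes were not called (0 of 4 tested by limma, and 0 at an unadjusted p under 0.05).

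During BLM, Atg5-/- AT2-BLM was compared with AT2-BLM, the question of whether autophagy alters the injured cells. Of the 8 genes tested only Hp was called, higher by 0.70 (standard error 0.31, adjusted p = 0.621 from limma), 1 of 8 genes against 2.04% of all genes called higher. That call rested on AT2-BLM replicate 3, the lowest Hp sample of all, without which the difference was 0.24, and it was also lost without Atg5-/- AT2-BLM replicate 2 (0.62) or 3 (0.65). Without AT2-BLM replicate 3, Lcn2 (-0.95) and Cp (-0.64) were called lower. With all samples, Lrg1 differed by 0.45 (standard error 0.32), Lcn2 by -0.45 (standard error 0.44), Cp by -0.45 (standard error 0.27), Orm2 by -0.55 (standard error 0.61), Saa1 by -0.21 (standard error 0.93), Saa2 by 0.073 (standard error 0.88) and C3 by -0.041 (standard error 0.25), with adjusted p from limma between 0.71 and 0.991. Saa3 differed by -1.20 and Orm1 by -1.38, as a description. None of the 22 liver markers was called (0 by limma, against 5.16% of all genes, and 0 at an unadjusted p under 0.05).

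To set the genes against liver RNA directly, each level was divided by that of Apoa1 in the 10 samples with Apoa1 of at least 1 FPKM. Liver genes kept a nearly fixed proportion, with the highest ratio exceeding the lowest by 1.32 times for Ttr, 1.70 for Alb and 1.96 for Mup3. Fgb, a fibrinogen gene that is itself an acute-phase gene of the liver, varied by 3.80 times. Saa1 (0.0936 to 0.370, or 3.96 times), Saa2 (4.91 times) and Cp (5.44 times) came next. Hp varied by 15.3 times, Orm1 by 21.98, C3 by 22.1, Lrg1 by 67.8, Lcn2 by 80.1 and Saa3 by 1812 times. Apoa1 ranged from 25.6 to 519.9 FPKM in these samples, so a gene at a steady level also varies by this measure. The value of Saa3 rests on AT2-PBS replicate 1, where Saa3 was at 0.204 FPKM. Orm2 was listed at 0 in that sample, so it has no such value. The ratio of Saa3 to Apoa1 was 0.00198 in AT2-PBS replicate 1, 0.0316 to 0.066 in Atg5-/- AT2-PBS, 0.435 to 0.884 in Atg5-/- AT2-BLM and 0.570 to 3.58 in AT2-BLM. Apoa1 itself was at 284 to 519.9 FPKM in Atg5-/- AT2-PBS and at 25.6 to 188 FPKM in Atg5-/- AT2-BLM, while the Saa3 levels of these groups overlapped. The ratio of Orm1 was 0.136 in AT2-PBS replicate 1, 0.179 to 0.266 in Atg5-/- AT2-PBS, 0.416 to 1.76 in Atg5-/- AT2-BLM and 0.966 to 2.99 in AT2-BLM. That of Lcn2 was 4.77 in AT2-PBS replicate 1, 1.99 to 5.10 in Atg5-/- AT2-PBS, 23.6 to 98.7 in Atg5-/- AT2-BLM and 48.1 to 159.7 in AT2-BLM. In AT2-PBS replicates 2 and 3, Apoa1 was at 0.496 and 0 FPKM. There Saa1, Saa2, Saa3, Orm1, Orm2 and Cp were each at or below 0.791 FPKM, whereas Lcn2, Lrg1, Hp and C3 were at 19.4 FPKM or more.

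**Figure D4:**
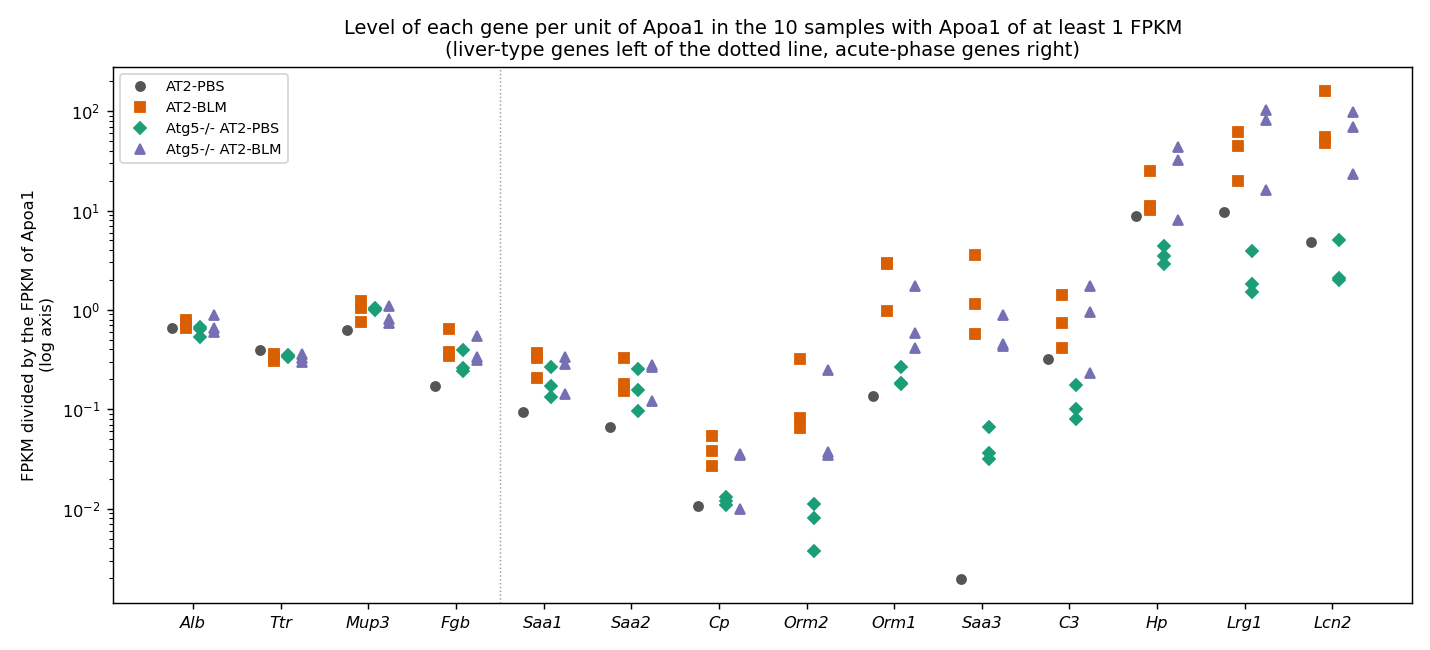
FPKM of each gene divided by the FPKM of Apoa1 (log axis) in the 10 samples with Apoa1 of at least 1 FPKM, by group, for 4 liver-type genes and the 10 acute-phase genes. Ttr, Alb and Mup3 hold nearly constant ratios (highest over lowest 1.32, 1.70 and 1.96), and Saa1 and Saa2 vary by 3.96 and 4.91 times. Saa3 varies by 1812 times, a value that rests on AT2-PBS replicate 1 with Saa3 at 0.204 FPKM. The Orm2 ratio of 0 in AT2-PBS replicate 1 is not drawn.

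The likeness of each gene to others over the 12 samples (Pearson's r of log2(FPKM + 1), a description, since samples of a group share their treatment and liver RNA) divided the genes in a similar way. Saa1 was most like Saa2 (r = 0.995), the fibrinogen gene Fgb (0.989) and Cyp2c29 (0.988), a liver cytochrome, and its r with Mup3 was 0.972. Saa2 was most like Saa1, Cyp2c29 (0.992) and Fgb (0.985). Cp was most like Cfhr2 (0.956), Tdo2 (0.955) and Gstm3 (0.953), and its r with Mup3 was 0.922. Saa3 was most like Orm2 (0.952), Lcn2 (0.950), Slpi (0.949), an antiprotease of mucosal secretions, Rhbg (0.938) and Bola3 (0.938), and its r with Mup3 was 0.584. Orm2 was most like Saa3, Lcn2 (0.929) and Phyhd1 (0.927). Lcn2 was most like Tmem176a (0.963), Tnfrsf9 (0.962) and Tmc4 (0.958), and Lrg1 like Slc16a6 (0.970), Tmc4 (0.955) and P2ry2 (0.955). Orm1 lay between these sets, with H2-Q4 (0.951), Spp1 (0.947) and Mat1a (0.941) as its nearest genes and r of 0.857 with Mup3. C3 was most like C1ra (0.907), Cxcl5 (0.891) and Vnn1 (0.889), and Hp like Tspan1 (0.912), Hcfc1r1 (0.879) and Arl6ip1 (0.875).

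Other genes of the acute-phase response were read from lists by role, beside the shares of all genes called in each comparison (20.6% higher and 7.77% lower with BLM in Atg5 f/f mice, 7.66% and 10.7% in Atg5-/- mice, and 14.1% higher in Atg5-/- AT2-PBS against AT2-PBS). Of 27 other acute-phase and complement genes tested, 15 were called higher in AT2-BLM against AT2-PBS, with a median log2 change of 1.41, and none lower. Of these, 10 had an adjusted p under 0.05, where 13.4% of all genes were higher at that threshold. Between Atg5-/- AT2-BLM and Atg5-/- AT2-PBS, 1 was called higher and 15 lower, with a median of -1.36, and between Atg5-/- AT2-PBS and AT2-PBS 22 were called higher, with a median of 2.62. The single gene that rose in Atg5-/- mice, Lbp, a carrier of bacterial lipopolysaccharide, changed by 0.67 (adjusted p = 0.135 from limma), and by 0.74 in Atg5 f/f mice (adjusted p = 0.0615). Cfb, complement factor B, changed by 3.47 in Atg5 f/f mice (adjusted p = 0.00047 from limma) and by -1.40 in Atg5-/- mice (adjusted p = 0.0381). Serping1, an inhibitor of the first complement component, fell by 2.77 in Atg5-/- mice (adjusted p = 0.00077 from limma). Hpx, the haem carrier hemopexin, changed by 3.08 in Atg5 f/f mice (adjusted p = 0.0505 from limma) and by -2.24 in Atg5-/- mice (adjusted p = 0.209). Between Atg5-/- AT2-BLM and AT2-BLM 0 of the 27 were called by limma, against 5.16% of all genes, and 0 had an unadjusted p under 0.05.

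Negative acute-phase proteins are those whose liver output drops in inflammation. Of 7 tested, 3 were called higher and none lower in AT2-BLM against AT2-PBS (Alb, Apoa1 and Ahsg), and 5 were called lower and none higher in Atg5-/- AT2-BLM against Atg5-/- AT2-PBS. In Atg5-/- AT2-PBS against AT2-PBS 6 of the 7 were called higher. Alb, Ttr, Apoa1 and Ahsg are also on the liver list, and Fga, Fgb and Fgg are on both the liver and the acute-phase lists. S100a8 and S100a9 are on both the neutrophil and the acute-phase lists.

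Of the 11 cytokines that induce acute-phase genes, 6 were high enough to test. None of the 6 was called in AT2-BLM against AT2-PBS (0 by limma, and 0 at an unadjusted p under 0.05). Lif, another cytokine of the interleukin 6 family, was removed by the filter on low values and not tested, and stood at 0.0082 to 0.0696 FPKM in AT2-PBS and at 0.966 to 1.4996 FPKM in AT2-BLM. Il6 was at 11.2, 0 and 13.5 FPKM in AT2-PBS and 5.40, 10.4 and 4.45 in AT2-BLM, with overlapping ranges. Il1b was at 0.340 to 3.07 FPKM in AT2-PBS and 2.00 to 2.49 in AT2-BLM, but at 30.5 to 38.3 FPKM in Atg5-/- AT2-PBS and 0.910 to 9.46 in Atg5-/- AT2-BLM. Il1a, Il1b, Tnf and Osm were all called higher in Atg5-/- AT2-PBS against AT2-PBS and lower in Atg5-/- AT2-BLM against Atg5-/- AT2-PBS, in step with the macrophage markers. Tnf, for example, fell by 4.41 with BLM in Atg5-/- mice (adjusted p = 0.0004 from limma). Il33, an epithelial alarmin, rose by 1.51 in that comparison (adjusted p = 0.0346 from limma).

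Among 11 receptor genes tested, Osmr, the oncostatin M receptor, was called higher with BLM in both genotypes, by 0.88 (adjusted p = 0.0442 from limma) and by 1.07 (adjusted p = 0.0289). It stood at 4.67 to 8.47 FPKM in AT2-PBS and 8.54 to 13.4 in AT2-BLM, and at 4.48 to 7.31 in Atg5-/- AT2-PBS and 9.04 to 14.9 in Atg5-/- AT2-BLM. In Atg5 f/f mice the list gave 2 higher and 2 lower, and in Atg5-/- mice 1 and 1. Of 18 signalling and transcription factor genes, 4 were called higher and 1 lower in Atg5 f/f mice, against 28.4% of all genes called in either direction, and 1 higher and 4 lower in Atg5-/- mice, against 18.4%. Socs3, the feedback inhibitor of STAT3 signalling, was the gene called higher in both, at 15.1 to 33.5 FPKM in AT2-PBS against 56.3 to 71.5 in AT2-BLM (log2 change 1.60, adjusted p = 0.0033 from limma) and 19.8 to 32.0 FPKM against 51.0 to 71.8 in Atg5-/- mice (1.29, adjusted p = 0.0108). Stat3 itself stayed between 51.4 and 82.7 FPKM and was not called in either (0.15 and 0.25). Relb, a subunit of noncanonical NF-kB, rose by 1.31 in Atg5 f/f mice (adjusted p = 0.0036 from limma) and fell by 0.54 in Atg5-/- mice (adjusted p = 0.186). Cebpb was at 182 FPKM in AT2-PBS replicate 3 and at 9.28 FPKM or less in the other samples, Cebpd was at 29.4 to 99.1 FPKM, and neither they nor Nfkbiz were called in either comparison with BLM.

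Of 16 tested receptors and partners of the acute-phase proteins, 2 were called higher and 2 lower in AT2-BLM against AT2-PBS, where 28.4% of all genes were called. Slc22a17, a receptor for Lcn2, fell by 1.00 (adjusted p = 0.0259 from limma) and Scarb1, a lipoprotein receptor that binds serum amyloid A, by 0.54 (adjusted p = 0.0316). In Atg5-/- mice 6 fell with BLM and none rose, among them Fpr1 (-3.01, adjusted p = 0.0028 from limma), Fpr2 (-1.79, adjusted p = 0.0047) and C5ar1 (-3.17, adjusted p = 0.0031), receptors of myeloid cells for serum amyloid A, formyl peptides and complement. Between Atg5-/- AT2-PBS and AT2-PBS 9 of the 16 were called higher. The macrophage and neutrophil sums moved in the same direction in both of these comparisons, and their part in these differences was not tested.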

How the data were processed

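RNA from 12 samples of sorted AT2 cells (3 in each of 4 groups) was sequenced with a TruSeq kit. Per the labels, the authors trimmed reads with Trimmomatic 0.36, and the submitters' processing notes also list HISAT2 2.2.1.0, Cufflinks 2.2.1 and HTSeq 0.9.1, whereas the methods name STAR and mm9. The deposited table gives FPKM, computed by the authors. Whether the DESeq normalization named in the methods entered these FPKM values is not given in the sources used here. Absolute depth cannot be read from FPKM, so no counting interval is given.

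Genes that reached 1 FPKM in 3 or more samples entered limma 3.58.1 (R 4.3.3) on log2(FPKM + 1), in 1 fit of all samples with a mean-variance trend, checked on simulated data. A call needed a fold change of 1.4 or more with an unadjusted p under 0.05, the criterion of the study. AT2-PBS replicate 3 is numbered by its title, from which its description differs. In no comparison was the correlation of same-numbered samples' deviations over 0.1 in every pair, so samples were not paired.

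The 10 genes, the gene lists and the tests were chosen with earlier results of these data known. Genes named beside the 10 were the 3 most alike (5 for Saa3), a fixed set of inducers (Il6, Il1b, Tnf, Stat3, Socs3, Nfkbiz, Cebpb, Cebpd) and up to 4 with the largest called change per list. Lbp, Il33, Serping1, Slc22a17 and Scarb1 fall outside this rule and were named after their values were seen, as were Saa4, Orm3, Ly6a and Lif. Hamp and Tlr2, which the rule takes in, were not named elsewhere. Alternatives changed the pseudocount, filter, scaling, variance model, samples, call rule, treatment of near-identical genes and covariates.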

Additional observations from a re-analysis of the deposited data

Results flagged for a closer look

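For 3 of the 8 acute-phase genes tested, the difference between BLM and PBS samples was not the same in Atg5-/- and Atg5 f/f mice. Their interaction term in the limma fit had an adjusted p under 0.05, as had 7.11% of all genes in the downward direction. Saa1 and Saa2 have transcripts 92.7% identical and are not separate counts. The difference, as the change in Atg5-/- mice minus the change in Atg5 f/f mice on the log2 scale, was -5.11 for Saa1, -4.80 for Saa2 and -2.30 for Cp. In Atg5 f/f mice these genes stood higher in AT2-BLM than in AT2-PBS, and in Atg5-/- mice they were lower in Atg5-/- AT2-BLM than in Atg5-/- AT2-PBS. The term takes in the PBS groups, which differed by 4.90 for Saa1, 4.88 for Saa2 and 1.85 for Cp. Between the BLM groups the same genes differed by -0.21, 0.073 and -0.45, none called. With the liver covariate (liver markers other than Fga, Fgb and Fgg) the differences were -0.57 for Saa1 and -0.70 for Saa2, neither called, and -1.30 for Cp, still called. All 22 liver markers were themselves called in the same direction in this term. The covariate was higher in every Atg5-/- AT2-PBS sample than in any other sample, so lost and kept calls say little about the origin of the RNA. No sample was tested as an outlier, since each group held 3 samples.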

How the results depend on the processing

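The number of acute-phase genes called with BLM in Atg5-/- mice, 5, became 3 with a pseudocount of 0.1, without a filter on low values, with a covariate for Y-linked genes (an alternative added once the data had been seen) and at an adjusted p under 0.05, and was 3 to 5 when single samples were left out. A replicate block gave 3 as well, and with it the interaction of C3 was called (-0.69). For Atg5-/- AT2-BLM against AT2-BLM the 1 call became 0 without the filter, with median-ratio scaling, with scaling to Cdh1, with only the compared groups, with the replicate block, at an adjusted p under 0.05 and at a fold change of at least 2, and was 0 to 2 with single samples left out. For Atg5-/- AT2-PBS against AT2-PBS the 6 calls became 1 with the liver covariate, where genes called higher over all genes went from 1507 to 706. They became 3 at an adjusted p under 0.05, with 5 to 7 when single samples were left out. The 5 interaction calls became 1 and 3 under the same settings, with 5 to 6. The 9 in AT2-BLM against AT2-PBS stayed within 1.5 times, at 8 to 9 with single samples left out. Direction turned with BLM in Atg5-/- mice for Saa1 (0.19), Orm1 (1.41) and Hp (0.22) with the liver covariate, for Hp (0.21) with the Y-linked covariate, for C3 with median-ratio scaling (-0.059) and scaling to Cdh1 (-0.44), and for Orm2 when Orm1, Orm2 and Orm3 were summed (-0.72). In Atg5-/- AT2-BLM against AT2-BLM it turned for C3 under quantile normalization (0.076), under median ratios (0.011), relative to Cdh1 (0.13) and after adjusting for Y-linked genes (0.094), and for Saa2 when summed with Saa1 (-0.12). In Atg5-/- AT2-PBS against AT2-PBS it turned for Lrg1 with the liver covariate (-0.45). The interaction turned for Lrg1 under quantile normalization (0.29), under median ratios (0.052), and with the liver covariate (0.89) and the Y-linked covariate (0.31), and for Hp with scaling to Cdh1 (-0.079). With single samples left out, the change with BLM in Atg5-/- mice ranged from -1.42 to 0.20 for Orm1, -0.088 to 0.12 for Hp and -0.064 to 0.12 for C3. Atg5-/- AT2-BLM against AT2-BLM ranged from -1.21 to 0.69 for Saa1, -0.86 to 0.96 for Saa2, -1.16 to 0.24 for Orm2 and -0.33 to 0.17 for C3, and the interaction from -0.40 to 0.16 for Lrg1 and -0.31 to 0.42 for Hp. The cause of these turns was not tested. Scaling to Cdh1 moved the median of all genes from 0.063 to -0.32 with BLM in Atg5-/- mice (118 genes called higher and 2450 lower, against 818 and 1144) and from 0.019 to 0.34 in Atg5-/- AT2-PBS against AT2-PBS (2735 and 79, against 1507 and 551), where quantile normalization gave -0.17 (1177 and 1587). The precision of low FPKM values is unknown, since depth is.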
